A study of Mus musculus with 38 samples.

Results

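Cholesterol and fatty acids are built from acetyl-CoA by 2 sets of enzymes, whose genes were followed here in whole brain and liver of mice given haloperidol. The set comprised 37 genes chosen by name, 21 of cholesterol synthesis and its control (the sterol arm) and 16 of fatty acid synthesis, desaturation and early glycerolipid assembly (the lipogenic arm). Each gene was read from the probe that carries its symbol alone, or from the brightest such probe over all arrays where several do. Such a probe was present for 36 of the 37 genes, among 18820 genes in all, and Acat2 of the sterol arm was not analysed here. All 36 genes, 20 sterol and 16 lipogenic, passed the filter on dim genes in both tissues, so that every one of them was tested.

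All mice were of the inbred strain C57BL/6J and carried slow-release pellets for 30 days, with the antipsychotic haloperidol, a dopamine D2 receptor blocker, in the treated group (labelled drug) and placebo in the other. Whole brain was profiled from 10 haloperidol and 10 placebo mice and liver from 9 and 9, each array from 1 mouse. The sources used here give no dose, age or sex, and no allele or agent beyond these. The values are log2 expression values made by the authors, and a change is the haloperidol mean minus the placebo mean on that scale.

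Sterol synthesis runs from HMG-CoA, the product of Hmgcs1, through mevalonate, isoprenoids and squalene to lanosterol, and ends in cholesterol. SREBP2, encoded by Srebf2, is the main transcription factor of these genes, and SREBP1, encoded by Srebf1, of the lipogenic ones. Both precursors sit in the endoplasmic reticulum with SCAP, which carries them to the Golgi for cleavage when sterols are low, while INSIG1 and INSIG2 hold SCAP back when sterols are high. The brain makes its own cholesterol, because lipoproteins do not cross the blood-brain barrier, and uses much of it for myelin. The liver makes cholesterol and fatty acids for export, at a rate that follows feeding.

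Markers matched the labelled tissue, with the mean log2 level of 6 hepatocyte genes between 12.80 and 12.93 on every liver array and that of 5 neuron genes between 11.67 and 11.95 on every brain array. Brain array haloperidol 4T also carried hepatocyte transcripts, with a mean of 8.64 against a median of 4.33 in its group, and placebo 1L and haloperidol 1R and 2N carried pituitary ones, at 7.39, 7.03 and 6.91 against group medians of 4.56 and 4.72, with placebo 2R and haloperidol 3B next at 5.51 and 5.47. Brain arrays also differed as a whole: the median over all probes was 6.20 ± 0.072 (SD, n = 10) with haloperidol and 6.33 ± 0.044 (SD, n = 10) with placebo. In liver it was 4.89 ± 0.090 and 4.80 ± 0.082 (SD, n = 9 each). Subtracting this median moved the median change of all brain genes tested from -0.020 to 0.12 and turned the split of calls from 1911 higher and 1905 lower to 4088 higher and 467 lower (32.6% and 3.72% of 12547 genes). A probe's change in these bulk tissues can come from fewer cells of a type or from less RNA per cell, which cannot be told apart.

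**Figure D1:**
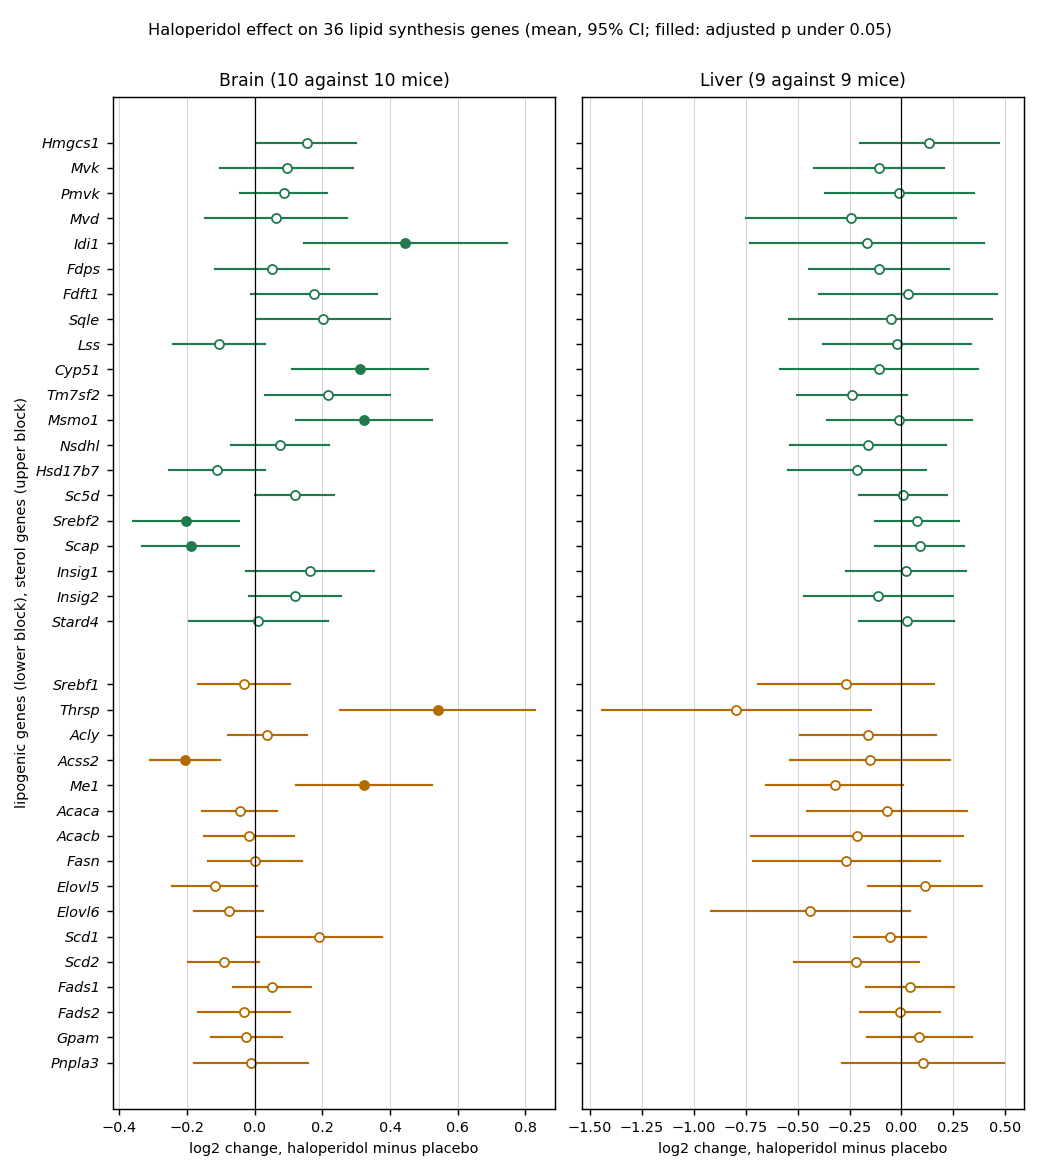
Log2 change with haloperidol (haloperidol minus placebo, horizontal axis) of the 36 genes in brain (left) and liver (right, on a wider axis), with sterol genes in green above and lipogenic genes in brown below; points are means, bars 95% confidence intervals from limma, and filled points have an adjusted p under 0.05. In brain 8 points are filled, 5 to the right of 0 and 3 to the left; in liver none is, and the Thrsp interval alone lies wholly below 0.

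In brain, the sterol arm leaned upwards in the deposited values. Idi1, Msmo1 and Cyp51 rose, and 16 of the 20 genes had a positive change, beside 46.0% of all genes tested. The arm's median change was 0.11 beside -0.020 over all genes tested. On single arrays the mean of the 20 genes, relative to placebo, ran from -0.29 to 0.15 with placebo, median 0.050. With haloperidol it ran from -0.11 to 0.28, median 0.073. Positive changes numbered 18 with the array median subtracted and 2 with it as a covariate. They numbered 12 with array weights and 12 without the arrays set aside below. Srebf2 and Scap, the transcription factor and its escort, went the opposite way and fell. The 3 genes that rose are 15% of the arm and the 2 that fell 10%, beside 15.2% of all 12547 genes that rose and 15.2% that fell (limma, Benjamini-Hochberg adjusted p under 0.05). The share of the arm past the threshold was therefore close to that of all genes, and the counts alone set the arm apart from nothing.

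The mevalonate steps come first. Hmgcs1, the synthase that makes HMG-CoA, lay between 9.87 and 10.33 with placebo, median 10.19, and between 10.00 and 10.53 with haloperidol, median 10.33. Its groups overlapped, with 9 of 10 haloperidol arrays above the placebo mean, and its change of 0.15 (SE 0.070) did not pass (limma adjusted p = 0.0974). Idi1, which interconverts the C5 isoprenoid building blocks, ran from 8.30 to 9.16 with placebo, median 8.95, and from 8.66 to 9.88 with haloperidol, median 9.29. Haloperidol 1R and 4L stayed at the low end, while 6 of 10 haloperidol arrays lay above every placebo array. Idi1 rose by 0.44 (SE 0.15; 1.36-fold), with a limma adjusted p of 0.0251. The other mevalonate genes were Mvk, Pmvk, Mvd and Fdps, the last of which makes farnesyl diphosphate. Their changes ran from 0.050 to 0.094, all positive and none past the threshold.

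Of the squalene steps, none passed. Sqle, the squalene epoxidase that is a rate-limiting step of the pathway, lay between 8.53 and 9.29 with placebo, median 9.02, and between 8.89 and 9.62 with haloperidol, median 9.22. The highest haloperidol value was that of 4T, the array with hepatocyte transcripts. The change of Sqle was 0.20 (SE 0.094; limma adjusted p = 0.101), that of Fdft1, the squalene synthase, 0.17, and that of Lss, which closes lanosterol, -0.11.

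Among the steps after lanosterol, Cyp51 and Msmo1, which remove the methyl groups at the C14 and C4 positions of the sterol ring, rose. Cyp51 ran from 8.404 to 8.97 with placebo, median 8.76, and from 8.64 to 9.56 with haloperidol, median 9.03. Msmo1 ran from 9.54 to 10.17 with placebo, median 9.90, and from 9.70 to 10.62 with haloperidol, median 10.19. In both genes 9 of 10 haloperidol arrays were above the placebo mean and 6 above the whole placebo group, and haloperidol 1R was the lowest and 4N the highest of the treated arrays. Cyp51 rose by 0.31 (SE 0.097; 1.24-fold; limma adjusted p = 0.0198) and Msmo1 by 0.32 (SE 0.097; 1.25-fold; limma adjusted p = 0.0172). Tm7sf2, a sterol C14 reductase, lay between 7.23 and 7.74 with placebo, median 7.51, and between 7.40 and 8.18 with haloperidol, median 7.72, a change of 0.22 (SE 0.090) that did not pass (limma adjusted p = 0.0699). Nsdhl, Hsd17b7 and Sc5d changed by 0.075, -0.11 and 0.12 and did not pass either.

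Of the regulators, Srebf2 and Scap went against the enzymes. Srebf2 lay between 10.08 and 10.36 with placebo, median 10.28, and between 9.72 and 10.40 with haloperidol, median 10.06. Scap lay between 8.90 and 9.10 with placebo, median 9.01, and between 8.48 and 9.13 with haloperidol, median 8.81. The haloperidol values were spread far wider than the placebo values in both genes: 3B and 4N were among the lowest and 4T was the highest, above every placebo array. Srebf2 fell by 0.20 (SE 0.075; limma adjusted p = 0.0442) and Scap fell by 0.19 (SE 0.069; limma adjusted p = 0.0428). Both calls are near the threshold: for Scap 14 of 20 fits that left out 1 array lost it (adjusted p 0.0534 to 0.0871), with the call kept only without haloperidol 1R, 2N, 4L or 4T or placebo 4B or 4R. For Srebf2 14 of 20 lost it as well (0.0515 to 0.0912), and it was kept only without haloperidol 1B, 1R, 2N, 4L or 4T or placebo 4R.

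Insig1, itself a well-known SREBP target, lay between 9.73 and 10.41 with placebo, median 10.19, and between 9.93 and 10.53 with haloperidol, median 10.35. Insig2 lay between 9.73 and 9.98 with placebo, median 9.87, and between 9.66 and 10.24 with haloperidol, median 9.98. Their changes of 0.16 (SE 0.091) and 0.12 (SE 0.066) did not pass (limma adjusted p = 0.168 and 0.167). Stard4, a sterol carrier protein, changed by 0.011.

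**Figure D2:**
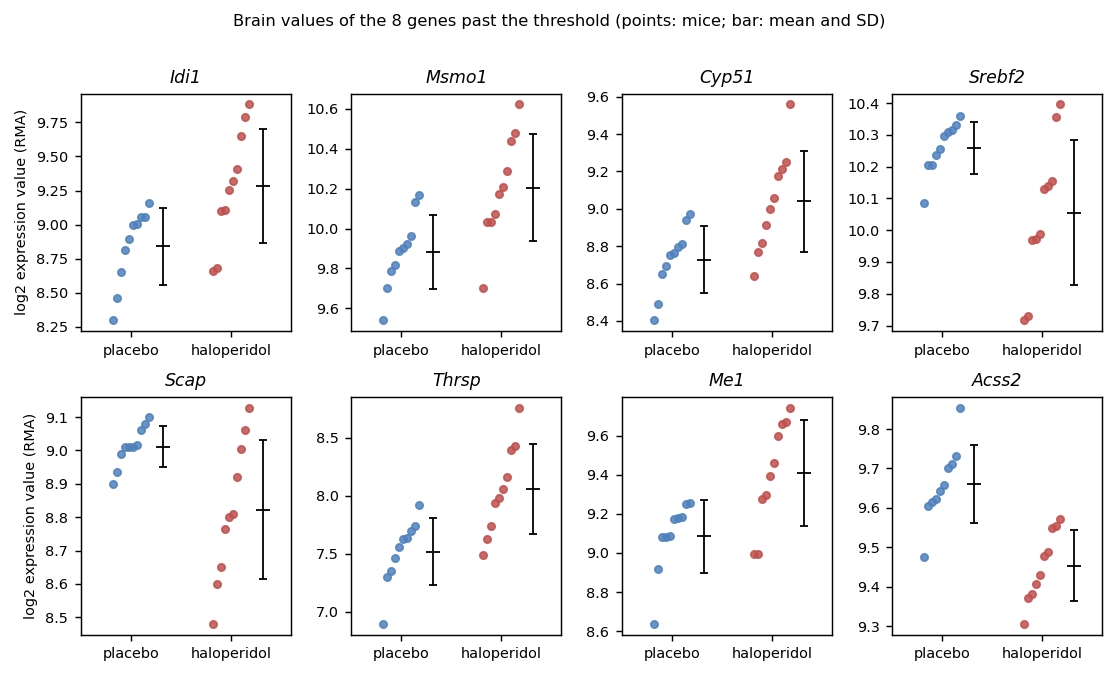
Log2 expression values in brain (vertical axes, a separate scale for each gene) of the 8 genes past the threshold, 1 point per mouse sorted by value, placebo in blue and haloperidol in red, with the mean and SD (n = 10 each) beside each group. Idi1, Msmo1, Cyp51, Thrsp and Me1 sit higher with haloperidol and Srebf2, Scap and Acss2 lower; the groups overlap in every gene.

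The stretch just before the transcription start is shown for Idi1, Msmo1, Cyp51 and Thrsp, which rose in brain and have a CCAAT box in it, and for Hmgcs1 as the 1 gene with an exact SREBP site. Sequences are from RefSeq on GRCm38.p6, 150 bases up to the base before the annotated start, 5′ to 3′ on the gene's strand, and capitals mark TCACNCCAC, a common form of the SREBP site, and CCAAT, the box bound by NF-Y, an SREBP partner, in either orientation (ATTGG is the reverse). The stretches are chr13:119690201-119690350 (plus strand) for Hmgcs1, chr13:8885456-8885605 (plus) for Idi1, chr8:64733579-64733728 (minus) for Msmo1, chr5:4104698-4104847 (minus) for Cyp51 and chr7:97417551-97417700 (minus) for Thrsp.
Hmgcs1: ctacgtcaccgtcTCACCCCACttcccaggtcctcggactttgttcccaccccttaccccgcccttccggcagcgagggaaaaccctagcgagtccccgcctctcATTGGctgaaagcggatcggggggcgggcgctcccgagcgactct
Idi1: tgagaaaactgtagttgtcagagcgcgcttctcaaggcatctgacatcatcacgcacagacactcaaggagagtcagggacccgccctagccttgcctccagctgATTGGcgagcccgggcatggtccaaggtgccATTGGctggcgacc
Msmo1: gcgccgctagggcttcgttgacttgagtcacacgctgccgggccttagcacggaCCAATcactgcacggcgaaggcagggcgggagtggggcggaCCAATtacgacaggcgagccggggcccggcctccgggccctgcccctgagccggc
Cyp51: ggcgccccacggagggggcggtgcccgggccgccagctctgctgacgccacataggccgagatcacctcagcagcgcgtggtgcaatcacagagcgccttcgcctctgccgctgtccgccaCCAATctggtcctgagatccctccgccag
Thrsp: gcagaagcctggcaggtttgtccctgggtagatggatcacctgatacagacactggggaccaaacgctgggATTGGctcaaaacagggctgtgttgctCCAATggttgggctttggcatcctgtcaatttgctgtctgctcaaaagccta

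Windows from 250 bases before to 50 bases after the start were at hand for 29 of the 36 genes and searched on both strands, a match being counted whether or not it overlapped another motif. The exact TCACNCCAC was in 1 of the 29, Hmgcs1, where TCACCCCAC begins at position -137 from the start, and in 1.44% of all 27025 genes with a window. With 1 mismatch outside the N it was in 12 of 29, beside 26.7% of all genes and 29.3% of those tested in brain. A CCAAT box was in 25 of 29, 15 of 16 sterol and 10 of 13 lipogenic genes, beside 41.1% of all genes and 42.5% of those tested in brain. The E-box CACGTG was in 5 of 29, beside 8.09% of all genes and 11.6% of those tested in brain. CCAAT boxes were thus common before members that rose and before members that did not. Me1, which also rose in brain, has 2 windows, neither with TCACNCCAC, and a CCAAT in 1 of them, at position -208, outside the 150 bases. These are matches of letters in the reference, not sites shown to be bound.

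The lipogenic arm showed no common direction in brain. Thrsp and Me1 rose, Acss2 fell, and 6 of the 16 genes had a positive change, beside 46.0% of all genes tested. The arm's median change was -0.021, at the -0.020 of all genes tested. The risen genes are 12.5% of the arm and the fallen gene 6.25%, each below the 15.2% of all genes that passed in that direction.

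Srebf1 lay between 7.71 and 8.08 with placebo, median 7.93, and between 7.65 and 8.25 with haloperidol, median 7.86, a change of -0.031 (SE 0.066; limma adjusted p = 0.737). Thrsp (Spot 14), a thyroid hormone-responsive protein that promotes lipogenesis, ran from 6.90 to 7.93 with placebo, median 7.59, and from 7.49 to 8.76 with haloperidol, median 8.02. Of the 10 haloperidol arrays, 9 were above the placebo mean, all but 1R, and 7 above every placebo array. Thrsp rose by 0.54 (SE 0.14; 1.45-fold), with a limma adjusted p of 0.00826, the largest change of any of the 36 genes in brain.

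The genes that supply acetyl-CoA and NADPH went different ways. Me1, the cytosolic malic enzyme that yields NADPH, ran from 8.64 to 9.25 with placebo, median 9.13, and from 9.00 to 9.74 with haloperidol, median 9.43. In 8 of 10 haloperidol arrays Me1 was above the whole placebo group, and 1R and 4L, the lowest for Idi1 too, were the exceptions. Me1 rose by 0.32 (SE 0.097; 1.25-fold; limma adjusted p = 0.0170). Acss2, which makes acetyl-CoA from acetate, ran from 9.48 to 9.85 with placebo, median 9.65, and from 9.31 to 9.57 with haloperidol, median 9.46. None of the 10 haloperidol arrays reached the placebo mean, although the lowest placebo array, 1L, lay within their range. Acss2 fell by 0.21 (SE 0.050; limma adjusted p = 0.00627). Acly, which makes acetyl-CoA from citrate, lay between 9.61 and 9.98 with placebo, median 9.85, and between 9.66 and 10.05 with haloperidol, median 9.89, a change of 0.037 (SE 0.056; limma adjusted p = 0.635).

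The committed steps did not differ beyond the spread between mice. Acaca, acetyl-CoA carboxylase 1, lay between 8.90 and 9.15 with placebo and between 8.87 and 9.29 with haloperidol (medians 9.10 and 9.03), and its change was -0.044 (95% interval -0.16 to 0.066). Fasn, the fatty acid synthase, lay between 10.25 and 10.42 with placebo and between 10.09 and 10.71 with haloperidol (medians 10.36 and 10.31), and its change was 0.00079 (-0.14 to 0.14). The highest Fasn and Srebf1 values in brain were both on haloperidol 4T. Scd1, the stearoyl-CoA desaturase, lay between 10.66 and 11.45 with placebo, median 11.32, and between 11.19 and 11.69 with haloperidol, median 11.42, a change of 0.19 (SE 0.090) that did not pass (limma adjusted p = 0.106). The other desaturases, elongases and glycerolipid genes (Scd2, Fads1, Fads2, Elovl5, Elovl6, Gpam and Pnpla3) and Acacb changed by -0.12 to 0.051, none past the threshold.

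**Figure D3:**
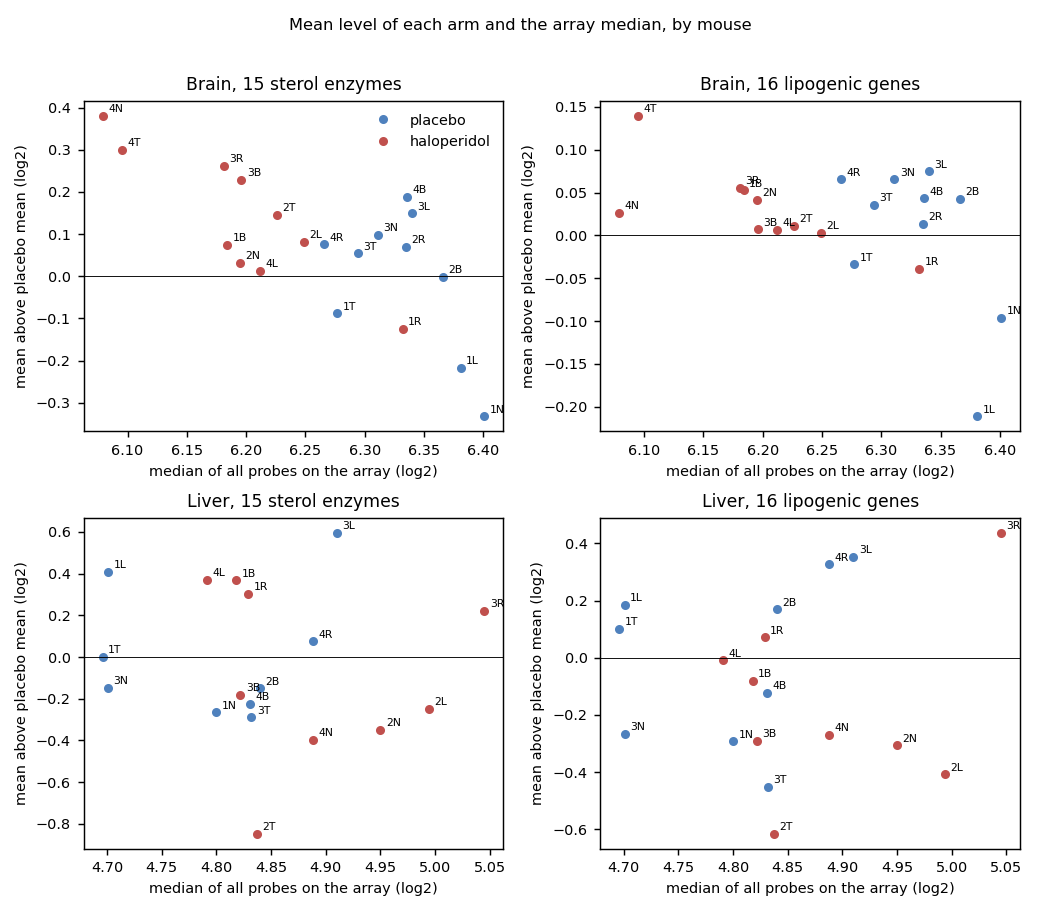
Mean of the 15 sterol enzymes (left) and the 16 lipogenic genes (right) on each array, as log2 distance from the placebo mean of the tissue, against the median of all probes on that array, in brain (above) and liver (below), with placebo in blue, haloperidol in red and the title tag beside each point. In brain the sterol mean is highest on haloperidol 4N and 4T, which have the lowest array medians, and lowest on placebo 1N and 1L, which have the highest; in liver haloperidol 2T is lowest for both arms.

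The brain calls moved with the array-wide difference. Haloperidol 4N and 4T had the lowest array medians, 6.08 and 6.10, and the highest means over the 15 sterol enzymes, 0.38 and 0.30 above placebo. Haloperidol 1R, with the highest treated median of 6.33, had the lowest mean, -0.12, and placebo 1N and 1L, at 6.401 and 6.38, were the lowest of all arrays at -0.33 and -0.22. With the array median subtracted, 11 sterol and 4 lipogenic genes rose and none fell (32.6% and 3.72% of all genes), and the sterol median became 0.24 beside 0.12 over all genes. The subtraction moves the change of every gene by the same amount, so the distance between these medians could not change. With the array median as a covariate, none of the 36 and 0 of all 12547 genes passed in limma (550 at an unadjusted p under 0.05), and 2 of 20 sterol changes were positive, against 16 of 20 as deposited, with a sterol median of -0.11 beside -0.037 and with Msmo1 at -0.064 and Cyp51 at -0.068. The array medians of the groups lay mostly apart, so that the drug and the array-wide difference can hardly be told apart here, and the part of the latter in these changes was not tested.

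Other settings moved the counts as well. Placebo 1L, haloperidol 4N and haloperidol 4T were set aside with earlier results known. 4N and 4T had the highest sterol enzyme means (0.38 and 0.30) and placebo 1L one of the lowest (-0.22), so leaving them out lowers the sterol changes by itself. Haloperidol 1R, the lowest treated array at -0.12, stayed in. With these arrays set aside, 0 sterol genes rose, and Idi1, Msmo1 and Cyp51 had changes of 0.36, 0.24 and 0.19 and limma adjusted p of 0.0843, 0.0812 and 0.10. Of the lipogenic genes Thrsp then still rose (0.40, limma adjusted p = 0.0311), Acss2 still fell (-0.23, 0.0145) and Me1 no longer passed (0.25, 0.0600). In a fit of all 38 arrays, whose spread includes the wider one of liver, none of the 36 genes passed in brain, with adjusted p from 0.0612 for Me1 upwards. Leaving out 1 array at a time gave 2 to 6 risen sterol genes: 5 without haloperidol 1R, 6 without 4L, and 2 without haloperidol 3B, 3R or 4N or placebo 1N, where Idi1 had adjusted p of up to 0.0534. Without 4T alone every count was as with it.

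The titles carry a tag of a digit and a letter whose meaning the labels do not give. Within each of the 4 digits, Idi1, Msmo1, Cyp51, Thrsp and Me1 were higher with haloperidol, by 0.11 to 0.76, 0.16 to 0.54, 0.16 to 0.46, 0.31 to 0.82 and 0.17 to 0.49. Acss2 and Srebf2 were lower within all 4 digits and Scap within 3. The digits divide the same arrays that gave the calls, so this is no separate support for them. Among genes that did not pass, Hmgcs1, Fdft1, Sqle, Tm7sf2, Sc5d, Insig1, Insig2 and Scd1 were also higher within all 4 digits. Lss, Hsd17b7, Elovl6 and Scd2 were lower within all 4. How many genes outside the set keep 1 direction in all 4 digits was not counted, so these lists do not set the members apart. With the digit as a block, Hmgcs1 also rose in brain (0.14, limma adjusted p = 0.0332).

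Markers of glia and blood differed between the brain groups too. Of 7 oligodendrocyte markers with a probe, Opalin (0.70) and Aspa (0.57) rose, and the list's mean level ran from 9.40 to 10.08 with placebo and from 9.56 to 10.17 with haloperidol. Of 7 microglia and Kupffer cell markers, 6 of them tested in brain, Aif1, Tyrobp, C1qa and C1qb rose by 0.30 to 0.75, and the mean level ran from 6.88 to 7.38 and from 7.25 to 7.82. Of 7 astrocyte markers S100b alone rose (0.41), none of the 5 neuron markers passed, and Alas2, the erythroid gene, rose by 0.85. Adipocyte markers had a mean level of at most 4.97 on any brain array. The part of these cell types in the lipid gene changes was not tested.

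Genes outside the set but on the same or related pathways passed in both directions as well. Of 15 further sterol genes 9 had a probe and were tested, and in brain 3 rose, Cyb5r3 (0.30), a reductase that feeds electrons to sterol oxidation, Acat1 (0.24), a mitochondrial acetoacetyl-CoA thiolase, and Nus1 (0.15), a dolichol synthesis subunit. The other dolichol subunit, Dhdds, fell by 0.18, and Mbtps1, the site-1 protease that cleaves SREBP, fell by 0.19. These are 33.3% and 22.2% of the 9, beside 15.2% of all genes in each direction, on few genes. The dolichol subunits and the mitochondrial thiolase among them are not enzymes of the sterol steps. Dhcr7 and Ebp, which are, changed by 0.015 and 0.050 and did not pass. None of 8 tested genes of sterol export, storage and turnover passed. Of 18 tested further lipogenic genes Mcat (0.37), a mitochondrial malonyl transferase, and Agpat2 (0.19), an acyltransferase, rose, and Elovl1 (-0.23), an elongase, and Lpin1 (-0.17), a phosphatidate phosphatase, fell, 11.1% each way. All these calls are limma's at an adjusted p of 0.00587 to 0.0484.

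In liver, no gene of the set passed, and neither did any other gene: 0% of 12547 had a limma adjusted p under 0.05, with 1316 at an unadjusted p under 0.05. Of the 36 genes 1 was among these, Thrsp. Of the sterol changes 7 of 20 were positive, where 16 were in brain, and of the lipogenic changes 4 of 16, where 6 were. Of all genes tested in liver 42.6% had a positive change. The medians of the arms were -0.037 and -0.16 beside -0.024 over all genes tested. Signs of small changes depended on the setting: with the tag digit as a block 14 of 20 sterol changes were positive, with array weights 12.

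Thrsp lay between 10.04 and 12.22 in placebo livers, median 11.32, and between 9.20 and 11.06 with haloperidol, median 10.46. None of the 9 haloperidol livers reached the placebo mean, and 2T and 2L were the lowest of all. Its change of -0.79 (SE 0.31; 0.576-fold) had a limma adjusted p of 0.409. Me1 lay between 10.02 and 10.73 with placebo, median 10.40, and between 9.20 and 10.90 with haloperidol, median 10.05, a change of -0.32 (SE 0.16; limma adjusted p = 0.485). Haloperidol 3R was above every placebo liver for Me1 and 4 others were below them all.

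Elovl6, the elongase of palmitate, lay between 9.33 and 10.77 with placebo, median 10.35, and between 8.75 and 10.50 with haloperidol, median 9.84, a change of -0.44 (SE 0.23; limma adjusted p = 0.504). Tm7sf2 lay between 9.37 and 9.79 with placebo, median 9.55, and between 8.95 and 9.86 with haloperidol, median 9.17, a change of -0.24 (SE 0.13; limma adjusted p = 0.510). For Tm7sf2 5 of 9 haloperidol livers were below the whole placebo group. Scd2, a desaturase, lay between 5.53 and 6.61 with placebo and between 5.48 and 6.49 with haloperidol (medians 6.34 and 6.12), and its change was -0.22 (SE 0.15; limma adjusted p = 0.588). Hsd17b7, a C3 ketosteroid reductase of sterol synthesis, lay between 8.65 and 9.46 and between 7.93 and 9.25 (medians 8.81 and 8.82), and its change was -0.22 (SE 0.16; limma adjusted p = 0.627). The medians of Hsd17b7 were nearly the same, and both the lowest and the highest haloperidol values lay below those of placebo.

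Of the regulators in liver, Srebf1 lay between 8.20 and 10.14 with placebo, median 9.22, and between 8.68 and 9.51 with haloperidol, median 9.14, a change of -0.27 (SE 0.20; limma adjusted p = 0.637). Srebf2 and Scap changed by 0.076 (SE 0.098) and 0.087 (SE 0.10), and Insig1 and Insig2 by 0.024 (SE 0.14) and -0.11 (SE 0.17). The 4 had overlapping groups and adjusted p of 0.772 or more. Hmgcs1 changed by 0.14 (95% interval -0.20 to 0.47), Sqle by -0.051 (-0.54 to 0.44), Fasn by -0.26 (-0.71 to 0.18), Acly by -0.16 (-0.49 to 0.17), Acaca by -0.069 (-0.45 to 0.31) and Scd1 by -0.055 (-0.23 to 0.12). Each interval held 0, and all but that of Scd1 also held the gene's change in brain. The other genes of the set changed by -0.24 to 0.11.

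The wide intervals in liver came with a wide spread between mice. The median SD within a group was 0.38 over the sterol genes and 0.40 over the lipogenic genes, beside 0.22 over all genes tested, and 17 of 20 and 13 of 16 were above that. In brain the medians were 0.20 and 0.13 beside 0.17. Of the 36 genes 35 had the larger SD in liver, from 0.17 for Scd1 to 0.74 for Thrsp there. The liver sterol enzymes of haloperidol 2T averaged 0.85 below placebo and those of placebo 3L 0.60 above, a wider span than any change between the groups.

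**Figure D4:**
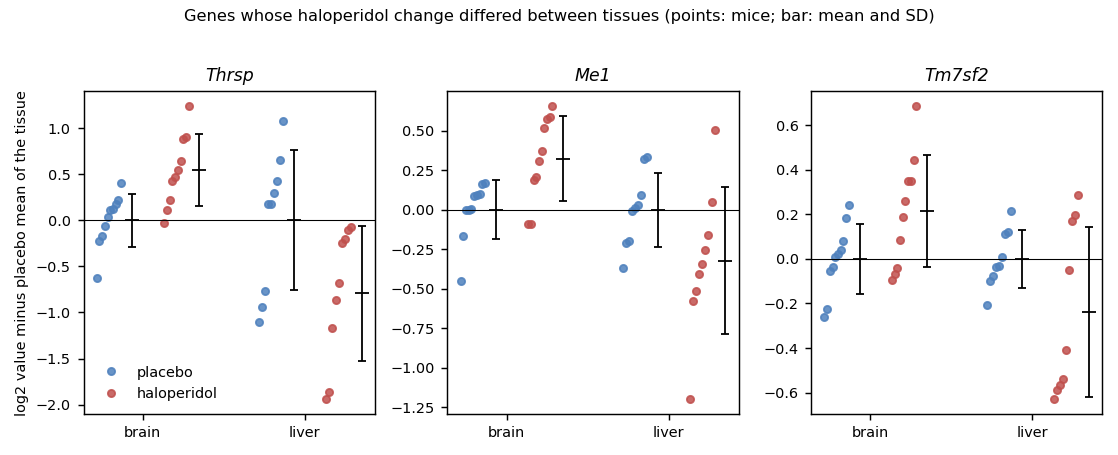
Values of Thrsp, Me1 and Tm7sf2 on each array as log2 distance from the placebo mean of the same tissue (vertical axes, a separate scale for each gene), brain left and liver right in each panel, placebo in blue and haloperidol in red, 1 point per mouse, with the mean and SD (n = 10 in brain, 9 in liver). With haloperidol all 3 genes lie above 0 on average in brain and below 0 in liver.

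Whether the change differed between tissues was tested per gene in a fit of all 38 arrays, as the liver change minus the brain change. Arrays that share a title tag were not paired in that fit. Of the 36 genes 3 differed, beside 23.0% of 10869 genes tested, and in all 3 the brain change was positive and the liver change negative. Thrsp differed by -1.34 (SE 0.34; limma adjusted p = 0.00564), Me1 by -0.65 (SE 0.19; limma adjusted p = 0.0128) and Tm7sf2 by -0.45 (SE 0.16; limma adjusted p = 0.0324). The share of the set was below the background. Within tag digits 1, 2, 3 and 4 the liver change of Thrsp was -0.087, -1.84, 0.071 and -1.24, with 1 placebo liver in digit 2. Liver Me1 was higher with haloperidol in digit 3 (0.17) and Tm7sf2 in digit 1 (0.15), and each was lower in the other digits. The digit and the letter were not run as blocks for the difference.

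The call of Tm7sf2 was lost in 8 of 38 fits without 1 array (adjusted p up to 0.0592): without placebo 1L or 1N or haloperidol 3B or 4N in brain, or haloperidol 2L, 2N, 2T or 4N in liver. Without placebo liver 3L 5 genes passed. Without those 3 brain arrays and haloperidol liver 1B, Thrsp alone passed (-1.28; adjusted p = 0.0145), and with the array median as a covariate none did. With the array median subtracted 10 passed, adding Idi1, Cyp51, Msmo1, Sc5d, Acly, Elovl6 and Scd1.

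By sign alone, 11 of 20 sterol genes were up in brain and down in liver, 5 up in both, 2 down in both, and 2, Srebf2 and Scap, down in brain and up in liver. Of the lipogenic genes 5 were up in brain and down in liver, 1 up in both, 3 down in brain and up in liver, and 7 down in both. Most of these signs belong to changes that did not pass in either tissue, and the share of all genes with each pattern was not counted. The liver signs also moved: 7 of 20 sterol changes were positive in the reported fit, 14 with the tag digit as a block and 12 with array weights. For Srebf2 and Scap the differences of 0.28 (SE 0.12) each did not pass (limma adjusted p = 0.0932 and 0.0951), and for Idi1 the difference of -0.61 (SE 0.31) did not either (0.147). Of the further pathway genes, Cyp46a1 (0.55), the brain cholesterol 24-hydroxylase, also differed, with changes of -0.19 in brain and 0.35 in liver, neither past the threshold. Cyb5r3 (-0.33), Mcat (-0.48) and Agpat2 (-0.41) differed in the opposite direction. The microglia and Kupffer cell markers moved likewise: in liver all 7 had a negative change (-0.40 to -0.12; 5 at an unadjusted limma p under 0.05, none past the threshold), and 5 of 6 differed between tissues, as did Alas2 (-1.13); the part of these cells in the tissue differences was not tested.

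The sterol enzymes varied together between mice of a group. Over arrays centred on their group means, the 15 sterol enzymes had a median pairwise Pearson r of 0.66 in brain (20 arrays, 104 of 105 pairs positive) and 0.78 in liver (18 arrays, 105 of 105). The 16 lipogenic genes had a median of 0.21 in brain and 0.54 in liver, and pairs across the arms had 0.25 and 0.53. In both tissues the lipogenic genes thus varied with each other about as they did with the sterol genes, weakly in brain. Pairs of genes outside the set were not measured, so no background stands beside these values. These values are descriptions over arrays that share their array-wide differences, and with the array median subtracted they were 0.76, 0.46 and 0.51 in brain and 0.79, 0.54 and 0.51 in liver.

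**Figure D5:**
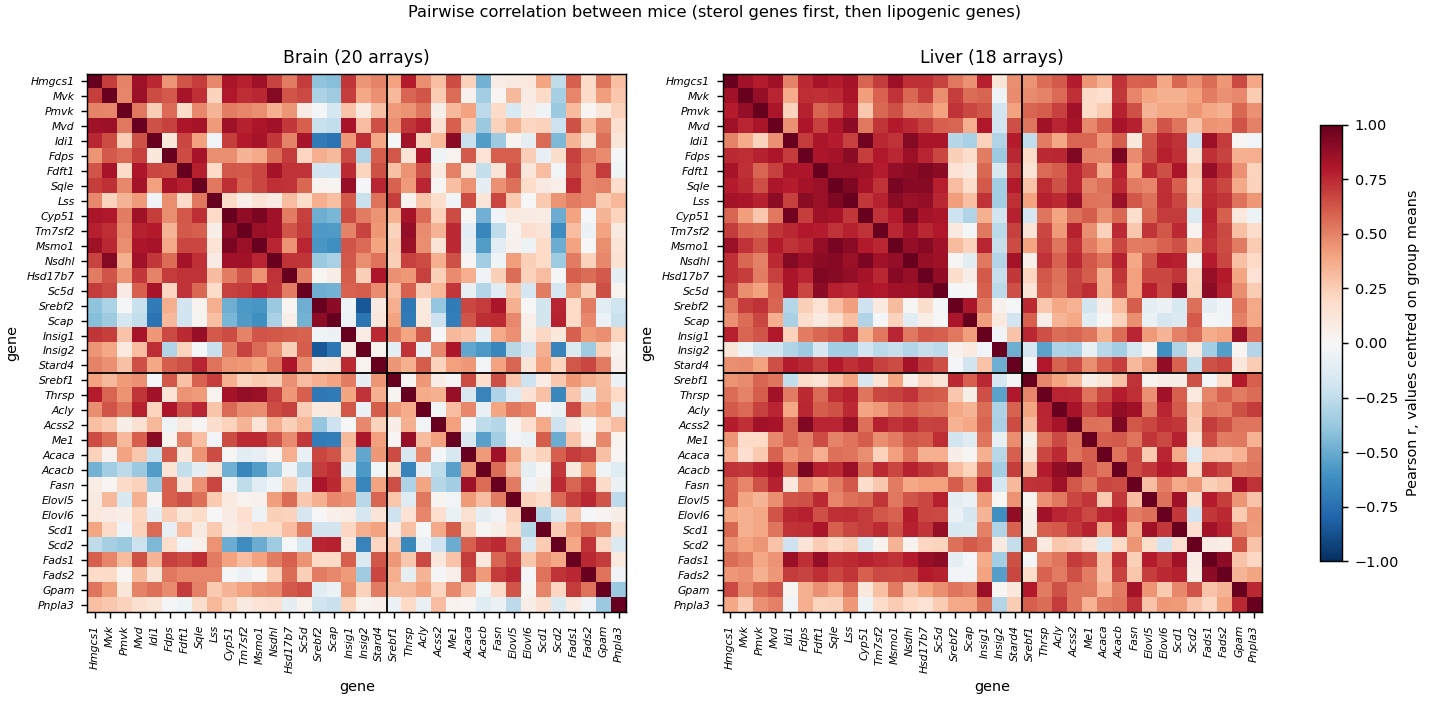
Pearson r between each pair of the 36 genes over 20 brain arrays (left) and 18 liver arrays (right), values centred on group means, sterol genes first and lipogenic genes after the black line, red positive and blue negative. The sterol enzymes form a red block in both tissues, Srebf2 and Scap are negative with most of it in brain, and Insig2 stands against most genes in liver.

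Srebf2 and Scap differed from the enzymes here as well, in brain. They had an r of 0.89 with each other and negative values with 11 of the 15 enzymes each, down to -0.74 for Scap with Idi1, while Insig1 was positive with all 15. The r of Srebf2 and Scap with the mean of the other sterol genes, -0.29 and -0.30, was 0.0060 and 0.051 with the array median subtracted. Insig2 had an r of -0.85 with Srebf2 in brain and was negative with 14 of 15 enzymes in liver, where Srebf2 and Scap had an r of 0.82. Thrsp, of the lipogenic arm, varied with sterol genes in brain, with an r of 0.88 with Tm7sf2 and 0.83 with Cyp51. These pairs were picked after their values were seen.

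For 7 pairs in both tissues, 14 in one family, r and rho were tested by permutation within groups (100000 resamples, two-sided, Benjamini-Hochberg over the 14). Insig1 and Sqle had an r of 0.87 and rho of 0.82 in brain (adjusted permutation p = 9.33e-05 and 0.00035), and 0.61 and 0.58 in liver (0.0166 and 0.0318). Thrsp and Me1 had an r of 0.87 and rho of 0.84 in brain (adjusted permutation p = 9.33e-05 and 0.00035) and 0.54 and 0.50 in liver (0.031 and 0.0579). The brain relations held without the 2 arrays farthest from the median of the first gene, with r of 0.81 for each pair, and in liver they were 0.57 and 0.36.

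Fasn and Acly, both of the lipogenic arm, had an r of 0.85 and rho of 0.80 in liver (adjusted permutation p = 9.33e-05 and 0.00084) and 0.39 and 0.42 in brain (0.126 and 0.0811). Without the 2 farthest arrays the r was 0.84 and 0.22. Hmgcs1 and Sqle had 0.69 and 0.72 in brain (0.00308 and 0.00304) and 0.78 and 0.73 in liver (0.00063 and 0.00328), with r of 0.61 and 0.69 without those arrays. Srebf2 and Hmgcs1 had an r of -0.40 and rho of -0.53 in brain (adjusted permutation p = 0.0662 and 0.0229), with an r of -0.24 without 2 arrays and -0.11 with the array median subtracted, and in liver 0.53 and 0.37 (0.0404 and 0.138), which rested on 2 arrays, r being 0.063 without them. Srebf1 and Fasn had 0.72 and 0.49 in liver (0.0053 and 0.0607), 0.56 without 2 arrays, with r of 0.91 over the 9 placebo and 0.097 over the 9 haloperidol livers, a difference that was not tested. In brain they had 0.64 and 0.50 (0.0151 and 0.0502), 0.44 without 2 arrays. Fasn and Sqle, across the arms, had 0.45 and 0.54 in brain (0.0492 and 0.0318) and 0.52 and 0.49 in liver (0.0404 and 0.0579), with 0.28 and 0.38 without 2 arrays.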

How the data were processed

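The deposited values are log2 values made by the authors; the submitters' processing notes name RMA and Affymetrix Expression Console, without versions. RMA sets the arrays to a common distribution, so that a change in total RNA is not visible. Sorted values lay within 0.208 (brain) and 0.234 (liver) log2 units of their tissue's mean distribution, which differed by up to 1.42 between tissues, so levels were compared within a tissue only. The number of arrays limits the precision.

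Of 35556 probes 21218 carried 1 gene symbol. The dimmest 33.3% of genes of a tissue were left out, below 5.52 in brain and 3.93 in liver, leaving 12547 per tissue and 10869 for the difference. Changes were tested, two-sided, with limma 3.58.1 in R 4.3.3 (lmFit, eBayes), with Benjamini-Hochberg adjustment over all genes tested, a threshold of 0.05 and 95% intervals, and the script was tested on simulated data. Plots used matplotlib and other steps Python with numpy. The members, the pathway and marker lists, the arrays set aside and the named genes (those past the threshold, the 6 of smallest p in liver, the regulators and the first or best known steps) were chosen with earlier results of these data known. Alternatives covered filter, scaling, tag digit, letter or whole tag as a block, variance model, array weights, probe choice and arrays left out.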

Additional observations from a re-analysis of the deposited data

Results flagged for a closer look

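The change with haloperidol differed between liver and brain, by limma's test of the difference, for Thrsp (-1.34), Me1 (-0.65) and Tm7sf2 (-0.45).

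In 5 of 144 groups of values (36 genes in 4 groups) 1 array stood far from the rest by Dixon's test, which chance gives in about 1 group in 20. Fdft1 was at 9.85 in placebo brain 1N, against 10.27 in the nearest other array and a group median of 10.48. Cyp51 was at 7.95 in haloperidol liver 2T, against 9.23 in the nearest and a median of 9.52. Scap was at 9.65 in placebo liver 3L, against 9.05 and 8.99. In haloperidol liver 3R Gpam was at 10.74, against 10.32 and 10.07, and Pnpla3 at 6.23, against 5.29 and 5.10.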

How the results depend on the processing

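The limits are the array-wide difference between the brain groups and, in liver, the spread between mice; the causes of the shifts below were not tested. Against 3 sterol genes higher and 2 lower and 2 lipogenic genes higher and 1 lower in brain, the counts were 11, 0, 4 and 0 with the array median subtracted, 0, 0, 0 and 0 with it as a covariate or with all 38 arrays in one fit, and 0, 2, 1 and 1 without the 3 brain arrays set aside. Sterol genes lower were 0 with no filter on dim genes or the tag letter as a block and 1 with the mean of all probes, and lipogenic genes lower were 3 with quantile normalization and 2 with array weights. With the covariate Cyp51 and Msmo1 reversed, to -0.068 and -0.064, as did 17 of the 28 brain changes that had not passed. Leaving out 1 array gave 2 to 6 sterol genes higher, 0 to 2 lower, and 2 and 1 lipogenic genes throughout. In liver 0 members passed under every alternative run, both tag blocks included.

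Genes that differed between tissues, 3 in the reported fit, were 10 with the array median subtracted, 0 with it as a covariate, 1 without the arrays set aside and 2 to 5 on leaving out 1 array. Of the 18 tags shared by a brain and a liver array, 5 had a correlation of their deviations above 0.1 (-0.32 to 0.25). Deviations in brain and liver of the same mouse need not correlate, so these values cannot show whether a tag marks a mouse. With the tag as a replicate block 2 genes differed, and with it as a random block 3. Of the 14 correlations tested 12 passed by r, 8 by rho and 7 by both, and 5 by r without the 2 farthest arrays. Pairs of genes outside the set were not tested, so these counts have no background share. The SREBP site was in 12 promoters with 1 mismatch allowed and in 1 within 150 bases.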
